A study of Microtus ochrogaster with 2 samples.

Results

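The peaks described here are the H3K4me1 peaks whose midpoint lay 1 to 2.5 kb from the nearest end of a protein-coding gene, a zone called the band below. They were chosen by position alone, and 2471 of the 36238 peaks in the list met the rule. H3K4me1 is histone H3 with 1 methyl group on lysine 4. The tissue was the retrosplenial cortex, which lies along the dorsal midline of the brain, and the donors were male prairie voles (Microtus ochrogaster) 30 to 40 days old. The peak list set 1 ChIP library against 1 input library. Per the labels the chromatin came from 8 males, with no animal tied to either library. Without replicate libraries no test over samples was possible, and all intervals below are 95% intervals for counting error only.

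In mammalian cells H3K4me1 marks enhancers, and it also flanks active promoters. At an active promoter the nucleosomes closest to the start carry trimethylated lysine 4 instead, so the monomethyl mark often forms shoulders on either side of a start and is low at the start itself. Enzymes of the KMT2 family deposit both forms. The gene table used here gives no strand, so the start and the finish of a gene could not be told apart, and "end" means either one. It gives no exons, so a peak inside a gene could not be assigned to an exon, an intron or an untranslated region. No genome sequence was used here, and no peak sequence is shown.

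Peak positions could be compared with genes on 28 chromosomes and linkage groups, which held 27022 peaks (74.6%) and 13975 protein-coding genes (69.6% of 20077). Of these peaks, 9.14% (Wilson interval 8.81 to 9.49%) lay in the band. The same band had served to match the peak list to the gene assembly, so its excess over other distances is not an independent result. The ChIP library held 37430265 fragments after filtering and the input 47554684. The weakest band peak had 16 ChIP fragments at its summit, which was also the minimum of the whole list, so a gene without a peak may carry enrichment too weak to be called at this depth.

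Most band peaks lay inside the gene whose end they were near. There were 1951 inner peaks and 516 outer peaks, and 4 more lay at an end coordinate that 2 genes shared from opposite sides. Inner peaks thus made up 79.1% (77.4 to 80.6%) of those that could be assigned. Of the outer peaks, 74 had their midpoint within another placed gene. The split by coordinate order was close to even, which without strand cannot show whether starts and finishes of genes differed. The lower-coordinate end held 982 of the inner peaks (50.3%, 48.1 to 52.5%) and 259 of the outer peaks (50.2%, 45.9 to 54.5%).

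The counts were then divided by the bases that met the same distance rule. Inner sequence in the band amounted to 33.8 Mb and outer sequence to 33.1 Mb, so both sides offered nearly the same room. The inner band held 57.8 peaks per Mb and the outer band 15.6 peaks per Mb, a ratio of 3.70 (3.36 to 4.08). An inner excess was also found far from gene ends. Beyond 10 kb the inner density was 27.2 peaks per Mb and the outer density 8.12 peaks per Mb, a ratio of 3.34 (3.25 to 3.44). Within the first 500 bp the sides had 14.9 and 14.7 peaks per Mb, a ratio of 1.01 (0.832 to 1.24). At 500 to 750 bp the densities were still alike, 21.8 (18.3 to 25.7) inside and 20.9 (17.4 to 24.9) outside. The sides parted at 750 to 1000 bp, with 49.9 (44.4 to 55.8) inside and 22.4 (18.8 to 26.6) outside.

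Each side was also compared with its own density beyond 10 kb. The inner band was 2.13 times as dense (2.03 to 2.23) and the outer band 1.92 times (1.76 to 2.10). Inner sequence beyond 10 kb exists only in long genes, and outer sequence beyond 10 kb only where the next gene end is far away. These ratios and those that follow thus compare sets of genes that differ. Nearer to the end the sides were unlike. At 500 to 1000 bp the outer side was 2.67 times (2.36 to 3.02) and the inner side 1.31 times (1.19 to 1.44) as dense. Within 500 bp the values were 1.80 (1.56 to 2.08) outside and 0.547 (0.476 to 0.629) inside. The outer excess was thus not particular to the band. In steps of 250 bp, both sides were densest at 1000 to 1250 bp. On the inner side density climbed from 12.6 peaks per Mb in the first 250 bp to 75.6 at 1000 to 1250 bp, stayed at 74.3 in the next step and fell to 34.4 at 2250 to 2500 bp. On the outer side it climbed from 11.2 peaks per Mb in the first 250 bp to 22.4 at 750 to 1000 bp and 23.4 (19.6 to 27.6) at 1000 to 1250 bp, and fell to 17.8 in the next step and 12.6 at 1500 to 1750 bp. The intervals of neighbouring outer steps overlapped, so the exact place of the outer maximum is not resolved at this number of peaks. The median inner peak was 1558 bp (1531.5 to 1583 bp) from its end and the median outer peak 1584.75 bp (1498.5 to 1673.5 bp).

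**Figure D1:**
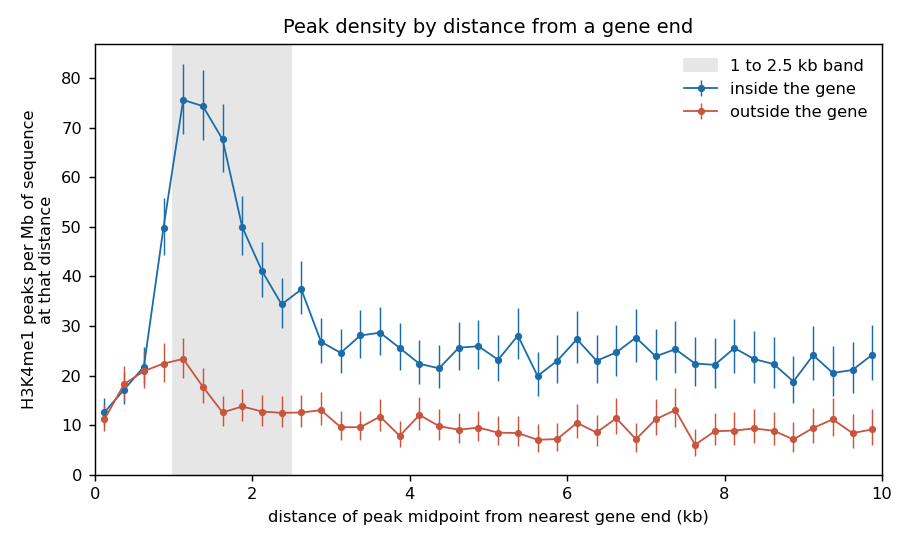
Peaks per Mb of sequence at each distance (y axis) against the distance of the peak midpoint from the nearest gene end in kb (x axis), in 250 bp steps, with exact Poisson 95% intervals for counting error. The inner side peaks at 75.6 per Mb at 1000 to 1250 bp, and the outer side stays far below it throughout the shaded band.

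The limits of the band cut through a continuous distribution. The peaks just within the near limit were inner peaks of Ciart, which encodes a repressor of the circadian clock, and Inca1, both at 1000 bp, with 2.51-fold and 3.04-fold enrichment. Just short of it, at 999.5 bp, lay an inner peak of Gnpat with 2.36-fold and an outer peak of Cd28 with 2.77-fold enrichment. At the far limit an outer peak of Plekho1 at 2500 bp had 3.16-fold and an inner peak of Ankrd13c at 2499.5 bp had 2.21-fold enrichment. Peaks just past it, in Vps26b at 2500.5 bp and in Tet2 at 2501.5 bp, had 2.72-fold and 2.79-fold enrichment. Nothing in these values set the members apart from their excluded neighbours. Here and below, fold enrichment is the authors' own value for each peak, the ChIP coverage at the summit over the background that the peak caller took from the input.

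Band peaks were slightly stronger than the other placed peaks, and the inner ones were wider. The median enrichment was 2.89-fold (2.86 to 2.90) for band peaks and 2.85-fold (2.84 to 2.86) for all placed peaks outside the band, and the median summit coverage was 24 and 22 fragments. Inner peaks had a median width of 494 bp (474 to 509 bp), against 429 bp (417 to 450 bp) for outer band peaks, 403 bp (391 to 419 bp) for inner peaks nearer than 1 kb and 451 bp (445 to 457 bp) for inner peaks beyond 10 kb. At least 1 kb of width was reached by 190 inner band peaks (9.74%, 8.50 to 11.1%) and 36 outer ones (6.98%, 5.08 to 9.51%), with overlapping intervals. By this measure inner band peaks showed no excess over inner peaks beyond 10 kb, of which 10.1% (9.61 to 10.7%) were that wide. The median enrichment was 2.90-fold (2.88 to 2.91) for inner and 2.81-fold (2.77 to 2.89) for outer band peaks, and the intervals overlapped. It was 2.87-fold (2.86 to 2.88) for inner peaks beyond 10 kb, an interval that met that of inner band peaks. For outer peaks beyond 10 kb it was 2.77-fold. Enrichment of 4-fold or more was reached by 95 band peaks (3.84%, 3.16 to 4.68%) and by 2.82% (2.62 to 3.04%) of all placed peaks outside the band. The caller's background was at its lowest possible value at 19.2% of inner band peaks, against 29.5% of outer band peaks and 30.5% of inner peaks beyond 10 kb. It exceeded 5 times that value at 8 band peaks.

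Among inner peaks with a gene symbol, the highest enrichment was at Denr, a factor for translation reinitiation, on chromosome 2 (13667508 to 13668651). That peak was 1144 bp wide, had 38 ChIP fragments at its summit and 5.39-fold enrichment, and its midpoint lay 1378.5 bp into a gene of 21.5 kb. Sidt2, a lysosomal membrane protein, followed on chromosome 5 (39899006 to 39899876) with 39 fragments and 5.31-fold enrichment. Mpg, a DNA glycosylase that removes alkylated bases, had 5.07-fold, Fam222b 4.97-fold, and Pbrm1, a subunit of the PBAF chromatin remodelling complex, 4.79-fold enrichment. Ehmt1, a histone H3 lysine 9 methyltransferase, and Nop53, a ribosome assembly factor, both had 4.70-fold enrichment. Maml1, a coactivator of Notch signalling, had 4.70-fold, the transcription factor gene Dmtf1 4.62-fold and Dpm1, which makes the mannose donor for protein glycosylation, 4.56-fold enrichment. These 10 genes spanned lengths from 5.97 kb (Mpg) to 168.9 kb (Ehmt1).

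Among outer peaks the highest enrichment was at Znf436, a zinc finger protein gene, on chromosome 10 (48519074 to 48520018), with 44 fragments, 5.61-fold enrichment and a midpoint 1403 bp outside the gene. Fam71d had 5.39-fold enrichment. Sil1, a cochaperone of the endoplasmic reticulum, had 4.68-fold enrichment. Stkld1 had an outer peak with 4.66-fold and Sv2a, a synaptic vesicle glycoprotein, with 4.54-fold enrichment at 1005 bp on chromosome 21 (2286305 to 2287305). Slc39a3, a zinc transporter, had 4.43-fold and Cdk5rap2, a centrosome protein, 4.31-fold enrichment. Eif3l, a subunit of translation initiation factor 3, had 4.29-fold and Phyhip 4.15-fold enrichment. The outer leaders reached values as high as the inner leaders, although outer peaks were much the fewer.

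A band peak was found at 2262 genes, or 16.2% of the 13975, counting either end and either side. Inner peaks were found at 13.2% of genes and outer peaks at 3.57%. Most of these genes had a single band peak: 2064 had 1, 183 had 2 and 15 had 3, and none had more. Genes with an inner and no outer peak numbered 1763, those with an outer and no inner peak 414, and those with both kinds 85. Among genes with an inner band peak, 1047 of 1848 (56.7%, 54.4 to 58.9%) had no other peak in the gene body. In 954 of the 2262 genes (42.2%, 40.2 to 44.2%), band peaks were the sole peaks in the gene with 5 kb on each side.

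Of the 15 genes with 3 band peaks, those described are among the first 8 in alphabetical order. Arl3, a small GTPase of cilia, had 1 outer peak of 2520 bp, the widest in the band, and 2 inner peaks at the same end. Copz1, a subunit of the COPI coat of Golgi vesicles, had a peak on both sides of one end and a further inner peak at the opposite end, with 3.89-fold, 3.71-fold and 3.16-fold enrichment. Edc4, an mRNA decapping factor, and Herc1, a large ubiquitin ligase, each had 3 inner peaks spread over both ends. Etf1, the translation termination factor, had 2 inner peaks and 1 outer peak, while Erf, an ETS family repressor, and Hmbox1 had 1 inner and 2 outer peaks each.

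Both sides of the same end carried a band peak at 48 of 27944 distinct gene ends, in 48 different genes, or 0.343% of all placed genes. Among the 12 with the highest enrichment in the weaker of the pair were Copz1, Rragc, Arl3, Gng5, Gsk3a, Synpo, Taf3, Kif13b, Fem1a, Lrrc8d and Leprotl1. At Copz1, on chromosome 15, the inner peak (946856 to 948028) had 29 fragments and 3.71-fold enrichment, and the outer peak (944377 to 945231) had 37 fragments and 3.89-fold. Their midpoints were 2638 bp apart. At Rragc, a Rag GTPase that relays amino acid levels to mTORC1, the values were 3.55-fold inside and 3.83-fold outside. Arl3 had 3.46-fold inside and 3.41-fold outside, and Gng5, a G protein gamma subunit, had 3.30-fold and 3.48-fold.

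The other named pairs were weaker. Since they were picked by the weaker of their folds, that choice favours balanced pairs. Gsk3a, a glycogen synthase kinase, had 3.17-fold enrichment inside and 3.07-fold outside, and Synpo, an actin-associated protein of dendritic spines, had 3.04-fold and 3.43-fold. Taf3, a TFIID subunit that binds trimethylated lysine 4, had 2.95-fold and 3.11-fold, and the kinesin gene Kif13b 2.93-fold and 3.18-fold. Fem1a, a substrate receptor of a ubiquitin ligase, had 3.57-fold and 2.90-fold, Lrrc8d, a subunit of volume-regulated anion channels, 2.88-fold and 2.99-fold, and Leprotl1 2.84-fold and 2.93-fold.

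Over the 48 ends the inner peak was the stronger at 26 and the outer at 22. The median enrichment was 2.77-fold inside and 2.79-fold outside. The midpoints were 2170.5 to 4450 bp apart, with a median of 3131 bp. At 1 of the ends the outer peak lay inside another gene. The outer peaks of Gsk3a (20232166 to 20232697) and Erf (20233379 to 20233719) on LG4 lay in the same gap between these neighbouring genes, so their ends share a locus. At 39 of the 48 ends no other peak had its midpoint within 1 kb of the end, and at 9 (18.8%) at least 1 did. Over all 27944 ends a peak lay that close at 1190 (4.26%, 4.03 to 4.50%), so a stretch without a called peak was the ordinary case. Unbalanced pairs, named after their values were seen, included Lcor, a nuclear receptor corepressor, with 4.18-fold inside and 2.42-fold outside, and Hnrnpa3, an RNA-binding protein, with 1.88-fold inside and 3.37-fold outside. The lowest pair was at Clptm1l, where 63 and 77 fragments gave only 2.02-fold and 1.78-fold enrichment.

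**Figure D2:**
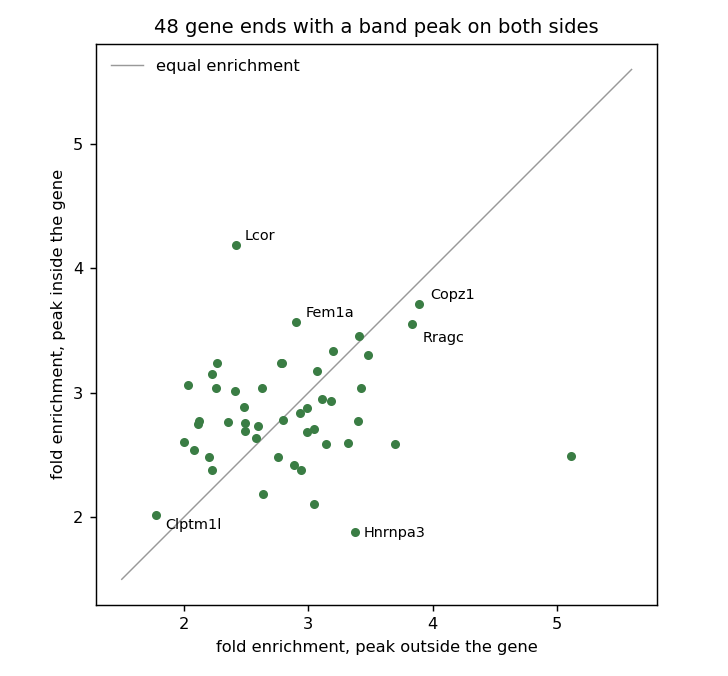
Fold enrichment of the inner peak (y axis) against that of the outer peak (x axis) at the 48 gene ends with a band peak on both sides, 1 point per end, with the line of equal enrichment. Points lie on either side of the line, 26 above and 22 below, with Lcor at the top and Hnrnpa3 at the bottom.

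How often the sides coincided was set against the rate at other ends. There were 20081 ends with room for a band on both sides. An outer peak was present at 48 of the 1457 such ends with an inner peak (3.29%, 2.49 to 4.34%), at 384 of the 18624 without one (2.06%, 1.87 to 2.28%) and at 2.15% of all of them. The same genes gave a second yardstick. Of 8472 genes with room on all 4 flanks, 38 had an inner and an outer peak at the same end (0.449%, 0.327 to 0.615%) and 36 had an inner peak at one end and an outer peak at the opposite end (0.425%, 0.307 to 0.588%). An inner peak together with an outer one was thus as frequent across the length of a gene as around a single end. In the same 8472 genes, inner peaks were at 1 end only in 1101 and at both ends in 28.

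Where neighbouring genes lay close together, inner band peaks were more frequent at the facing ends. Gaps between neighbouring genes of at least 2 kb in length were grouped by size, a comparison chosen after the data were examined. An inner band peak was present at 15.7% (13.9 to 17.6%) of the 1472 ends facing a gap under 250 bp and at 14.4% (11.7 to 17.7%) of the 534 ends facing one of 250 to 500 bp. At gaps of 500 to 1000 bp the share was 6.92% (5.27 to 9.03%), and at the 4740 gaps over 20 kb 712 of 9480 ends had one (7.51%). Both genes had an inner band peak at 32 of 736 gaps under 250 bp (4.35%, 3.10 to 6.07%) and at 34 of the gaps over 20 kb (0.717%). A gap under 2 kb leaves no room for an outer band peak, so in these loci the marks on either side of the gap belonged to different genes.

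There were 46 gene pairs less than 1 kb apart with an inner band peak in each gene. The examples given were chosen after their values were seen. Ranked by the weaker peak and leaving out pairs with an uncharacterised LOC gene, the first were Atg4b, an autophagy protease, and Thap4, 331 bp apart, with 3.64-fold and 3.60-fold enrichment. Next came Zbtb8os, a component of the tRNA ligase complex, and Rbbp4, a histone-binding subunit of several chromatin complexes, 249 bp apart, with 3.41-fold and 3.60-fold. Glyr1 and Ubn1, a histone chaperone subunit, were 816 bp apart and had 4.14-fold and 3.38-fold enrichment. Further down the ranking, Rpl7a, a protein of the large ribosomal subunit, and Med22, a subunit of the Mediator complex, were 84 bp apart and had 3.04-fold and 2.93-fold. Sdha, a subunit of succinate dehydrogenase, and Ccdc127 were 15 bp apart and had 3.22-fold and 2.82-fold. The midpoints of these peaks were 2330.5 to 3562 bp apart. The distance rule bounds this spacing and the one at single ends with a peak on both sides, so no likeness can be read from them.

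**Figure D3:**
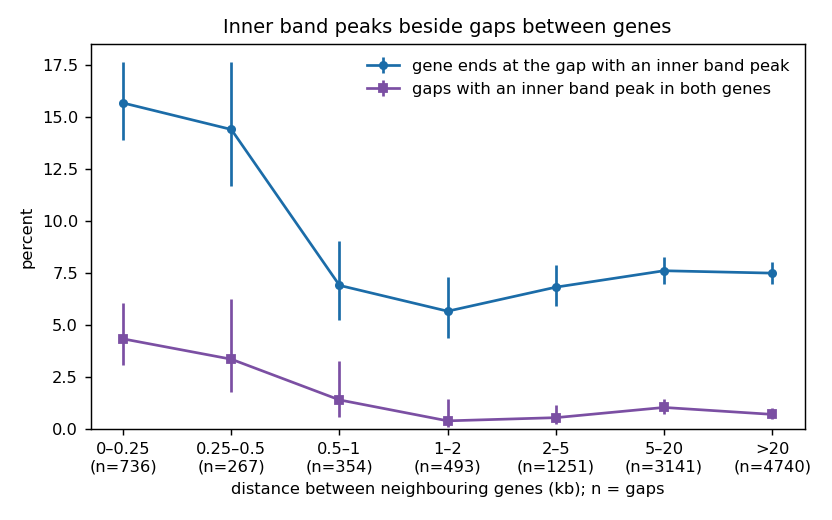
Percent of gene ends facing a gap that had an inner band peak, and percent of gaps with an inner band peak in both genes (y axis), by the distance between the genes in kb (x axis), with 95% Wilson intervals. Both percentages are highest at gaps under 500 bp, with 15.7% and 14.4% of ends, and level off at larger gaps.

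Genes with a band peak were longer than the typical gene but not the longest. Their median length was 26.6 kb (order-statistic interval 25.2 to 28.1 kb), against 18.0 kb (17.4 to 18.7 kb) for all placed genes. A gene under 2 kb has no inner band, which by construction accounts for some of this difference. Among the 12320 genes of at least 2 kb, the median was 22.6 kb (21.9 to 23.3 kb), and those with an inner band peak had 27.0 kb (25.6 to 28.5 kb). Genes with an outer band peak had a median of 25.1 kb (22.0 to 29.1 kb), and the 48 with a peak on both sides of an end had 33.6 kb (23.5 to 62.3 kb). Genes with a peak in the body but none in the band had a median of 62.8 kb (60.6 to 65.2 kb), and since a longer gene offers more room for a peak outside the band, this group favours long genes by construction.

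By length class, inner band peaks were most frequent in genes of 20 to 50 kb. Their share was 8.53% (7.22 to 10.1%) at 2 to 5 kb, 12.1% (10.7 to 13.7%) at 5 to 10 kb, 15.4% (14.0 to 17.0%) at 10 to 20 kb and 19.1% (17.8 to 20.5%) at 20 to 50 kb. It was 18.1% at 50 to 100 kb, 12.7% (10.8 to 14.9%) at 100 to 200 kb and 11.2% (9.01 to 13.9%) above 200 kb. Density per Mb of inner band, which allows for the room available, was 63.5 at 2 to 5 kb, 45.1 at 5 to 10 kb, 69.5 at 20 to 50 kb and 39.6 above 200 kb. The shortest class was thus no longer low by density, and the longest still was. Outer peaks varied less, from 14.1 per Mb at 10 to 20 kb to 19.8 per Mb at 100 to 200 kb, except for genes under 2 kb with 7.58 per Mb (5.22 to 10.6).

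**Figure D4:**
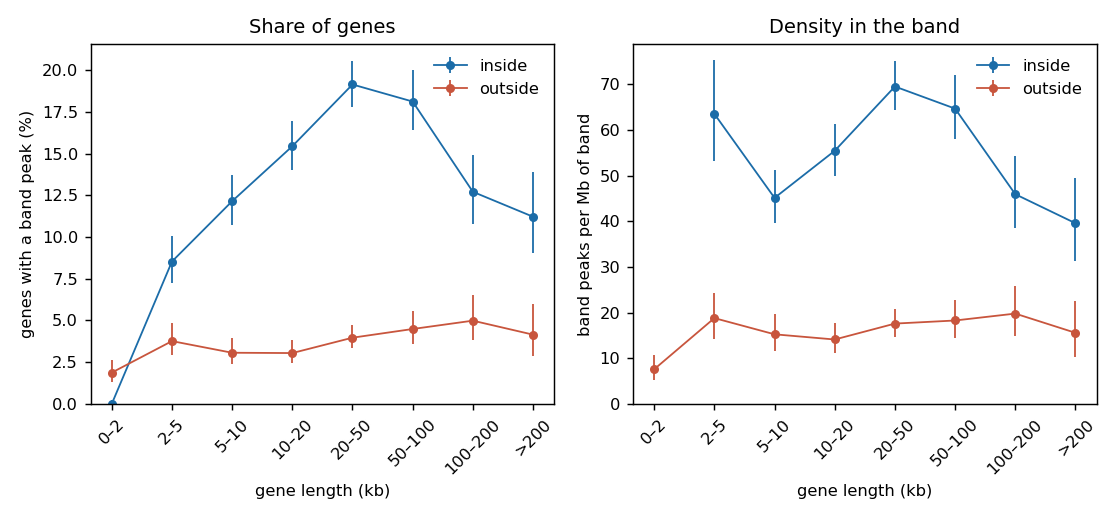
Left, percent of genes with an inner or outer band peak by gene length in kb, with 95% Wilson intervals; right, band peaks per Mb of inner or outer band, with exact Poisson 95% intervals. Inner peaks reach 19.1% of genes and 69.5 per Mb at 20 to 50 kb, while outer peaks change little with length above 2 kb.

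Gene families differed widely in how many members had a band peak. Of 41 families and lists with at least 10 placed genes, 22 had a larger share than the 16.2% of all genes and 19 a smaller one. For 12 the whole interval lay above 16.2%, and for 2 it lay below. The 2 below were potassium channels and chemokines and interleukins. No test of a family was made, and the shares are a description of this peak list.

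RNA splicing genes had the largest share. A band peak was present at 23 of 49 genes for spliceosome components, SR proteins and hnRNPs (46.9%, 33.7 to 60.6%), 21 with an inner peak. Sf3b2, a subunit of the U2 particle, had 3.86-fold enrichment at 1113.5 bp, and Snrpf, a core Sm protein, had 3.83-fold at 1366 bp. Srsf3, an SR protein, and Hnrnpa3 were among the genes with peaks on both sides of an end. The list of chromatin remodellers, which also takes in Arid genes such as Arid4a and Arid5a, had a band peak at 11 of 28 (39.3%, 23.6 to 57.6%). Arid4a had 3.31-fold and Smarcb1, a core subunit of the BAF complex, 3.16-fold enrichment.

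Proteasome genes had a band peak at 15 of 33 (45.5%, 29.8 to 62.0%), and in all 15 it lay inside the gene. Psmd11, a lid subunit, had 33 fragments and 4.39-fold enrichment at 1831 bp, and Psmd7, also of the lid, had 3.96-fold at 1339 bp. Genes of ubiquitin conjugating enzymes and ubiquitin specific proteases had one at 20 of 62 (32.3%, 22.0 to 44.6%), led by Ube2j1 with 3.87-fold and Ube2g2 with 3.74-fold, both enzymes of protein disposal at the endoplasmic reticulum. Heat shock proteins and chaperonins had one at 21 of 61 (34.4%, 23.7 to 47.0%), led by the cochaperones Dnajb12 with 4.51-fold and Dnajc10 with 4.14-fold.

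Oxidative phosphorylation genes of the nucleus had a band peak at 19 of 52 (36.5%, 24.8 to 50.1%), again all inside the gene. Ndufs1, the largest subunit of complex I, had 37 fragments and 3.60-fold enrichment at 1392 bp, and Ndufv2, of the same complex, had 3.30-fold at 1508 bp. Translation factors had one at 14 of 44 (31.8%), led by Eif3l outside the gene and by Eif4h with 3.97-fold inside it. Cytoplasmic ribosomal protein genes had one at 16 of 52 (30.8%, 19.9 to 44.3%), led by Rps7 with 4.08-fold and Rpsa with 4.04-fold. Their median length was 3.32 kb, so many had little room for an inner band. Mitochondrial ribosomal protein genes had one at 13 of 51 (25.5%, 15.5 to 38.9%), an interval that reached down to the share of all genes, led by Mrpl15 with 4.29-fold and Mrpl42 with 3.15-fold.

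Trafficking and signalling genes were also frequent. Vesicle trafficking genes had a band peak at 32 of 103 (31.1%, 22.9 to 40.6%), led by the sorting nexin Snx13 with 4.10-fold and Ap3d1, a subunit of the AP-3 adaptor, with 3.92-fold. Protein phosphatase subunits had one at 16 of 55 (29.1%, 18.8 to 42.1%), with Ppp1r8 at 3.64-fold and Ppp2r5a at 3.46-fold. F-box and Klhl adaptors had one at 16 of 62 (25.8%, 16.6 to 37.9%), with Fbxo38 and Fbxo21 both at 3.60-fold. Zinc finger Zfp and Znf genes had one at 33 of 133 (24.8%, 18.2 to 32.8%), led by Znf436 and by Znf451 with 4.42-fold. Intervals that included 16.2% were found for DEAD-box helicases (9 of 34, led by Dhx33 with 4.49-fold and Dhx32 with 4.15-fold), Rab GTPases (10 of 38, led by Rab2a with 3.77-fold and Rab1b with 3.73-fold) and the MAP kinase cascade (9 of 42, led by Map3k2 with 3.63-fold and Map3k11 with 3.50-fold).

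Several families stood near the share of all genes. Tmem genes had a band peak at 32 of 163, led by Tmem63c with 4.14-fold and Tmem165 with 3.96-fold, and solute carriers at 41 of 256 (16.0%), led by Slc39a3 and Slc12a8 with 3.87-fold. RING and Trim genes had one at 14 of 85, led by Rnf126 with 4.29-fold and Trim11 with 4.01-fold. Histone lysine methyltransferase and demethylase genes had one at 7 of 40, led by Ehmt1 and by Nsd1 with 3.88-fold. For the RING and histone methylation lists, the side of the all-gene share on which they fell changed with the processing.

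Among genes of neuronal excitability, the potassium channels had few band peaks. The other lists lay near the share of all genes when both sides were counted together. Potassium channel genes had one at 3 of 62 (4.84%, 1.66 to 13.3%), Kcnk13 and Kcns1 with 3.04-fold each and Kcnh7 with 2.16-fold. A peak in the gene body was present at 50% of potassium channel genes, with a median length of 47.6 kb, and at 37.8% of all genes, with a median length of 18.0 kb. Splicing genes had a body peak in 65.3% and proteasome genes in 54.5%. Voltage-gated calcium and sodium channel genes had a band peak at 4 of 29 (13.8%, 5.50 to 30.6%), among them the sodium channel gene Scn3a with 3.60-fold. Glutamate and GABA receptor genes had one at 5 of 33 (15.2%, 6.65 to 30.9%), in each case outside the gene, led by Gabrg3 with 3.04-fold and Grik5 with 3.04-fold. That outer share of 15.2% stood against 3.57% of all genes and rested on 5 genes of a list with a median length of 185.1 kb. It was not particular to this list. Outer band peaks were also present at 4 of 20 immediate early genes, 4 of 28 chromatin remodellers and 6 of 44 translation factors, and at none of 33 proteasome genes. An inner band peak was present at 1 of the 33, Gabrg3, against 13.2% of all genes. Gabrg3 had a peak on both sides of the same end. Synapse genes had a band peak at 5 of 24 (20.8%, 9.24 to 40.5%), namely Sv2a, Vamp2 with 3.73-fold, Nrxn2 with 3.60-fold, Dlg2 with 2.75-fold and Shank2 with 2.49-fold.

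Immediate early genes, which neurons switch on with firing, had a band peak at 5 of 20 (25%, 11.2 to 46.9%). With only the 50% of peaks of higher q rank, 1 of 20 had one (5%), against 9.60% of all genes, so the list then fell below the share of all genes. The peak lay outside the gene at Fos, Egr3, Jun and Dusp1 and inside it at Nr4a2 alone. Nr4a2, an orphan nuclear receptor, had 2.96-fold enrichment at 1282.5 bp, and Fos had 2.67-fold at 2107.5 bp. Fos, Jun and Dusp1 are short genes of 3.38, 2.75 and 2.91 kb, which leaves little room for an inner band. Among dual specificity phosphatases, 2 of 14 had a band peak, Dusp6 with 3.10-fold and Dusp1 with 2.17-fold, both outside.

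At the low end, the list of chemokines and interleukins, which includes receptors, had a band peak at 2 of 76 (2.63%, 0.725 to 9.10%). These were the receptor genes Il1r1 with 3.18-fold and Cxcr5 with 3.10-fold. Cadherins and protocadherins had one at 2 of 34, Pcdh1 with 2.72-fold and Cdh6 with 2.63-fold, both outside the gene, while 44.1% of them had a peak in the body. The collagen list had one at 2 of 35, Col16a1 with 3.44-fold outside the gene and Col4a3bp with 2.11-fold, and the latter encodes a ceramide transfer protein rather than a collagen. Claudins and connexins had one at 2 of 32, Cldn20 with 3.42-fold and Cldn16 with 2.77-fold. Forkhead genes had one at 3 of 35, led by Foxn3 with 3.12-fold and Foxo3 with 2.74-fold. Wnt pathway genes had one at 3 of 29, led by Apc with 3.36-fold and Gsk3a. Kruppel-like and Sp factors had one at 2 of 15, Klf7 with 2.95-fold and Klf9 with 2.76-fold. Short genes were common in some of these lists. Among genes of at least 5 kb, forkhead genes had 17.6% (3 of 17) and Kruppel-like and Sp factors 20% (2 of 10), near the 19% of all such genes. Wnt pathway genes had 13.0% (3 of 23). Shares stayed low for claudins and connexins (1 of 14), collagens (2 of 35) and chemokines and interleukins (2 of 46). Only 6 of the 13 Sox genes were that long. Hox genes (18), keratins (13) and Sox genes (13) had none, which with so few genes allows shares of up to 17.6%, 22.8% and 22.8%. The Hox genes had a median length of 1.835 kb, and only 1 of the 18 was at least 5 kb long. A gene under 2 kb has no inner band, so the lack of Hox band peaks cannot be set against the share of all genes.

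Lists for single cell types were too short to place. Microglia genes had a band peak at 3 of 13, among them Trem2 with 2.77-fold and Tmem119 with 2.59-fold. Oligodendrocyte lineage genes had none of 13, astrocyte genes none of 8 and endothelial and pericyte genes none of 9. Of genes of tissues not sampled, the hepatocyte list had 1 of 13, Alb with 2.86-fold outside the gene, and the striated muscle list 1 of 12, Mylpf with 3.70-fold outside the gene. Neighbouring genes were not examined for these peaks, so an outer peak need not belong to the gene named.

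**Figure D5:**
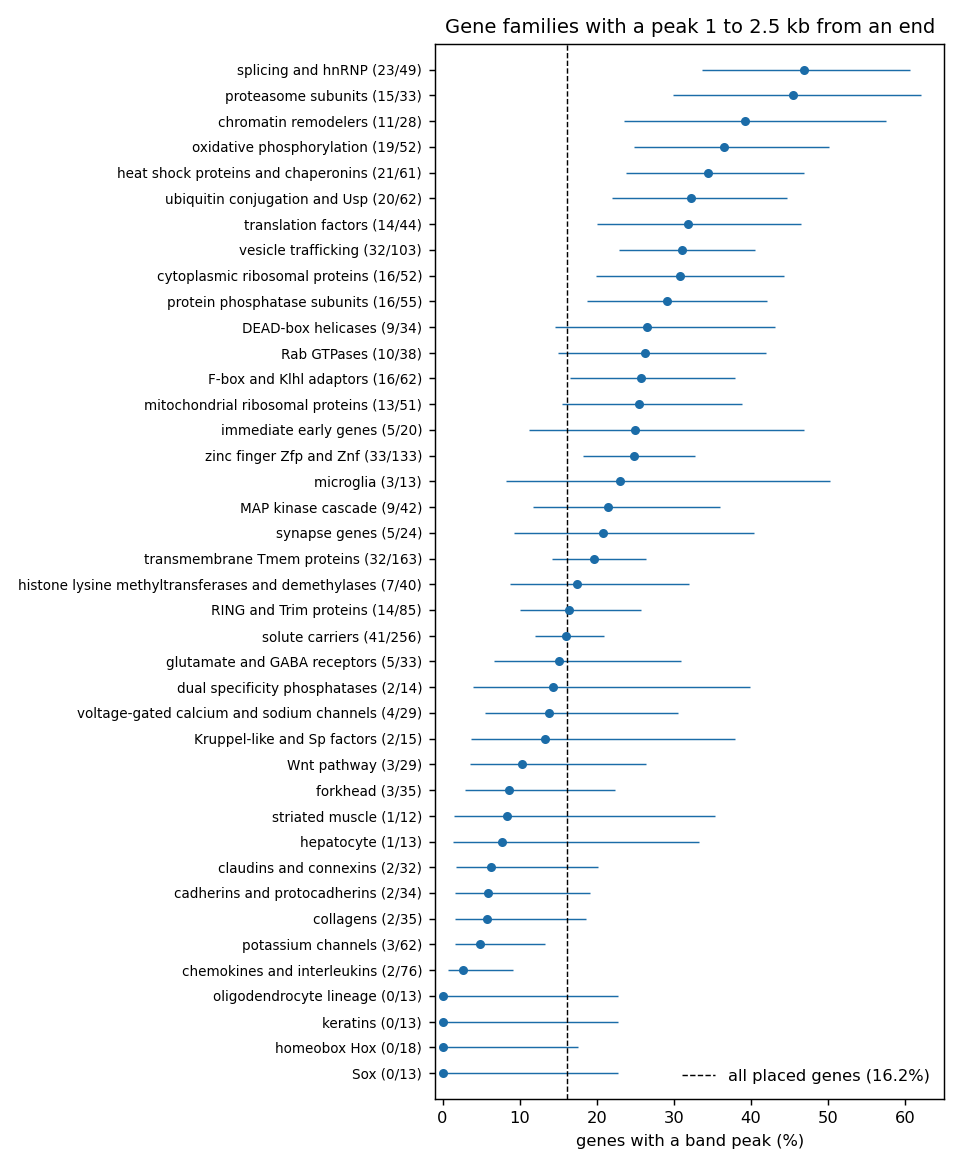
Percent of placed genes with a band peak (x axis) in families and lists of at least 10 genes (y axis, with the count), with 95% Wilson intervals and a dashed line at 16.2%, the share of all placed genes. Splicing and proteasome genes lie farthest to the right. Hox genes, keratins, Sox genes and the oligodendrocyte lineage lie at 0, followed by chemokines and interleukins and by potassium channels.

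The order of the main families was similar among longer genes. Of all genes of at least 5 kb, 19% had a band peak. The share in that class was 45.5% for splicing genes (20 of 44), 48.3% for proteasome genes (14 of 29), 44.4% for oxidative phosphorylation genes (16 of 36), 5.36% for potassium channels (3 of 56) and 6.90% for cadherins (2 of 29). Counted over placed genes of any length, those with an uncharacterised LOC symbol had a band peak at 140 of 2540 (5.51%, 4.69 to 6.47%). The other genes had one at 2122 of 11435 (18.6%, 17.9 to 19.3%).

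Inner band peaks were less crowded than inner peaks beyond 10 kb, and outer band peaks more crowded than outer peaks beyond 10 kb. Another peak had its midpoint within 2.5 kb of 22.7% (20.9 to 24.6%) of inner and 22.9% (19.5 to 26.7%) of outer band peaks. The figures were 34.5% (33.7 to 35.3%) for inner peaks beyond 10 kb and 16.5% (15.6 to 17.4%) for outer ones. The median distance to the nearest other peak was 12.3 kb for inner band peaks and 4.96 kb for inner peaks beyond 10 kb.

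Across the 27 chromosomes and linkage groups other than the X, the share of genes with a band peak ran from 4.44% to 23.4%, with a median of 16.6%. The highest was chromosome 24, with 57 of 244 genes, and the lowest was linkage group LG12, with 2 of 45. On the X chromosome 4 of 329 genes (1.22%) had a band peak. On LG12 and the X, earlier work on these data had found no match between peak positions and the gene assembly, so the low values there cannot be told apart from a mismatch of positions.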

How the data were processed

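Per the file headers, the authors ran MACS 2.0.10.20131216 on paired-end alignments at a q cutoff of 0.05. The submitters' processing notes list BWA 0.7.12 and SAMtools 0.1.19, while header paths name Stampy, so the aligner is uncertain, and no source used here names the build. The deposited values are the pileup (the signal, as ChIP fragment coverage at the summit), the fold enrichment (a ratio of pileup to the background from the scaled input), the −log10 p and −log10 q, and positions and widths. They were used only to describe and filter peaks.

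Genes came from the RefSeq table of assembly MicOch1.0. Sequences not named alike in both sources and chromosome 6 below 20 Mb were left out. The distance of each midpoint to the nearest gene end, its side, and the bases offering that distance were computed in Python 3.11.15 with pandas 2.3.3. The method was tested on simulated peaks. Intervals are Wilson (shares), exact Poisson (densities) and order-statistic (medians), at 95%. They cover counting error only. Named genes were the 12 pairs with the highest weaker fold, the 10 inner and 10 outer peaks of highest fold, the 8 genes with most band peaks, the 2 highest in each family, and the peaks at each limit. Some named genes and 1 list are not reported here. Members and lists were chosen with earlier results of these data known. No gene strand was available, so the planned split into starts and finishes was not run.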

Additional observations from a re-analysis of the deposited data

How the results depend on the processing

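Of 40 recomputed values for the main results, 29 stayed within the interval of the reported value (or within 1.5 times a count) and 11 moved. None turned the order of the inner and outer sides, and the ratio of their densities ran from 3.40 to 4.49. With the 50% of peaks of higher q rank, the density ratio was 4.31, the share in the band 10.5%, and 15 ends had a peak on both sides; with the 25% of highest fold these were 4.49, 10.3% and 5. Both smaller peak sets leave fewer ends where both peaks remain. A band of 750 to 2500 bp gave 81 ends with a peak on both sides, as a wider band must give at least as many. Counting genes of any type gave a share of 9.64% and a median gene length of 24.9 kb, and genes of at least 5 kb alone a median of 30.1 kb, as the short ones were removed. Another peak lay within 5 kb of 36.2% of band peaks, against 22.8% within 2.5 kb. Leaving out LG12 and the X, which was chosen after the data were examined, moved none of the 7 main values. Of 168 recomputed shares of single families and widths, 13 moved. With the higher q rank, 9.60% of all genes had a band peak and 27.3% of proteasome genes, against 1 of 20 immediate early genes and 0 of 13 microglia genes, which thus changed sides of the all-gene share. Synapse and histone methylation genes did so among genes of at least 5 kb, and the RING, Kruppel-like and muscle lists did so under at least 1 alternative. No paired analysis was possible because there was 1 library of each kind. Depth limits the list to peaks of at least 16 fragments.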
